A study of Mus musculus with 6 samples.

Results

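The histone genes listed in RNA-seq data from mouse ileal crypts numbered 36 of the 7120 listed genes. Membership was set by gene symbol, though earlier results of these data were known. There were 30 clustered genes, whose symbols begin with Hist, and 6 replacement genes, H1f0, H2afj, H2afx, H2afz, H3f3a and H3f3b. The groups were Tl1a-tg crypts (3 libraries), from mice that carry a Tl1a transgene, and WT crypts (3 libraries). All mice were C57BL/6 and 3 months old. Crypts, the pits between the villi that hold stem cells, dividing cells, Paneth cells and goblet cells, were cut by laser from methacarn-fixed ileal sections. The labels give neither the promoter and cell type that drive the transgene nor whether each library is a mouse of its own. TL1A is a TNF-like cytokine that acts through the receptor DR3, and the comparison asks how its overexpression changes the crypt transcriptome.

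Histones wrap DNA into nucleosomes. H2A, H2B, H3 and H4 form the core, and H1 binds the DNA that enters and leaves it. Clustered histone genes are transcribed mainly in S phase, lack introns, and make mRNAs that end in a stem-loop bound by SLBP instead of a poly(A) tail. Replacement histones are made through the cell cycle, mostly from polyadenylated mRNAs. H2A.Z (H2afz) marks nucleosomes near promoters, H3.3 (H3f3a, H3f3b) is deposited outside replication, H2A.X (H2afx) is phosphorylated at DNA breaks, and H1.0 (H1f0) accumulates in cells that have stopped dividing. In crypts, dividing progenitors are the cells known to use the clustered genes most.

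The stem-loop is shown because most clustered and few replacement genes carry it. A 16-base pattern on the transcript strand, the arm GGNNCT, the loop TTTN and the arm AGNNCC without gaps (N is any base), was searched in GENCODE mouse transcripts on GRCm38 and printed here as DNA, with the match in capitals and up to 5 flanking bases in lower case. It occurred in transcripts of 89 of 55450 annotated genes (0.161%), and 45 of those 89 genes carry symbols of the histone rule. Among the listed genes it was found in 22 of 30 clustered and in 1 of 6 replacement genes, H2afx. Of the 8 clustered genes with no match, 5 have gene models with fewer than 16 bases outside the coding sequence.
Hist1h2bj: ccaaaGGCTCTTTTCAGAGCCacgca
Hist1h2bm: acaaaGGCTCTTTTCAGAGCCactaa
Hist1h2ap: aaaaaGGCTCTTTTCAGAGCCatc
Hist1h1e: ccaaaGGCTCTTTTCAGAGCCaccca
Hist1h4h: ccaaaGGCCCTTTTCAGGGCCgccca
Hist1h4j: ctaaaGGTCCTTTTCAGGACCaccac
Hist2h4: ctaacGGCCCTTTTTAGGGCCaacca
H2afx: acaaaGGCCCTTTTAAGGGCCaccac
The same 16 bases, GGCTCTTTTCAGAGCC, made up 13 of the 22 clustered matches, including Hist1h2bj, read in Tl1a-tg alone, and Hist1h2bm, read in WT alone. The pattern was present in 8 of the 10 clustered genes read in both genotypes, 4 of 6 read in Tl1a-tg alone, 6 of 7 read in WT alone and 4 of 7 read in neither. The libraries were made with a kit for mRNA, and the part that the missing poly(A) tail plays in these levels was not tested.

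The deposited expression value of each gene is 1 fitted mean per genotype multiplied by 1 factor per library. These factors were 1.01, 1.10 and 0.781 in Tl1a-tg and 1.34, 0.591 and 1.46 in WT, relative to a geometric mean of 1. Summed values per library, over all listed genes, ran from 376022 to 530625 in Tl1a-tg and from 314186 to 774249 in WT. The columns therefore hold no spread between replicates: within a genotype the library values are 1 number rescaled, so whether the groups overlap says nothing of replicates. Levels below are fitted means in reads per library with the library factors divided out. Their sums over all genes still differed, 481509 in Tl1a-tg, against 531372 in WT. The tests are those of DESeq2 in the authors' deposited table, and the model behind them may have held libraries beyond the 6 described here. A fitted mean at the value shared by 1939 genes in Tl1a-tg (0.193) or 2981 genes in WT (0.176), or below 0.01, was taken as a genotype without reads. A gene with a fitted mean of at least 10 in both genotypes is called measured. Tnfsf15, which encodes TL1A, was without reads in both genotypes, so it offers no check of the labels. Over all genes, 34.4% were read in both genotypes, 31.4% in Tl1a-tg alone, 16.3% in WT alone and 17.9% in neither.

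Of the 9 histone genes with an adjusted p, 1 passed the test, Hist1h2bj, beside 3.67% of the 1662 adjusted genes. Its fitted mean was higher in Tl1a-tg crypts. The call was lost when its near-0 WT mean was raised to the value that most genes without reads share. The clustered genes otherwise split by genotype with no common direction: 10 of 30 were read in both genotypes, 6 in Tl1a-tg alone, 7 in WT alone and 7 in neither. Thus 13 of 30 clustered genes (43.3%) were read in 1 genotype only, beside 47.8% of all genes. Some of the 10 have a fitted mean below 1 in 1 genotype. With at least 1 asked, 7 were read in both, 8 in Tl1a-tg alone, 8 in WT alone and 7 in neither. The shares over all genes at that limit were not computed. In these bulk crypts, fewer cells of a type and less RNA per cell cannot be told apart. The plot of fitted means shows the alternation gene by gene.

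**Figure D1:**
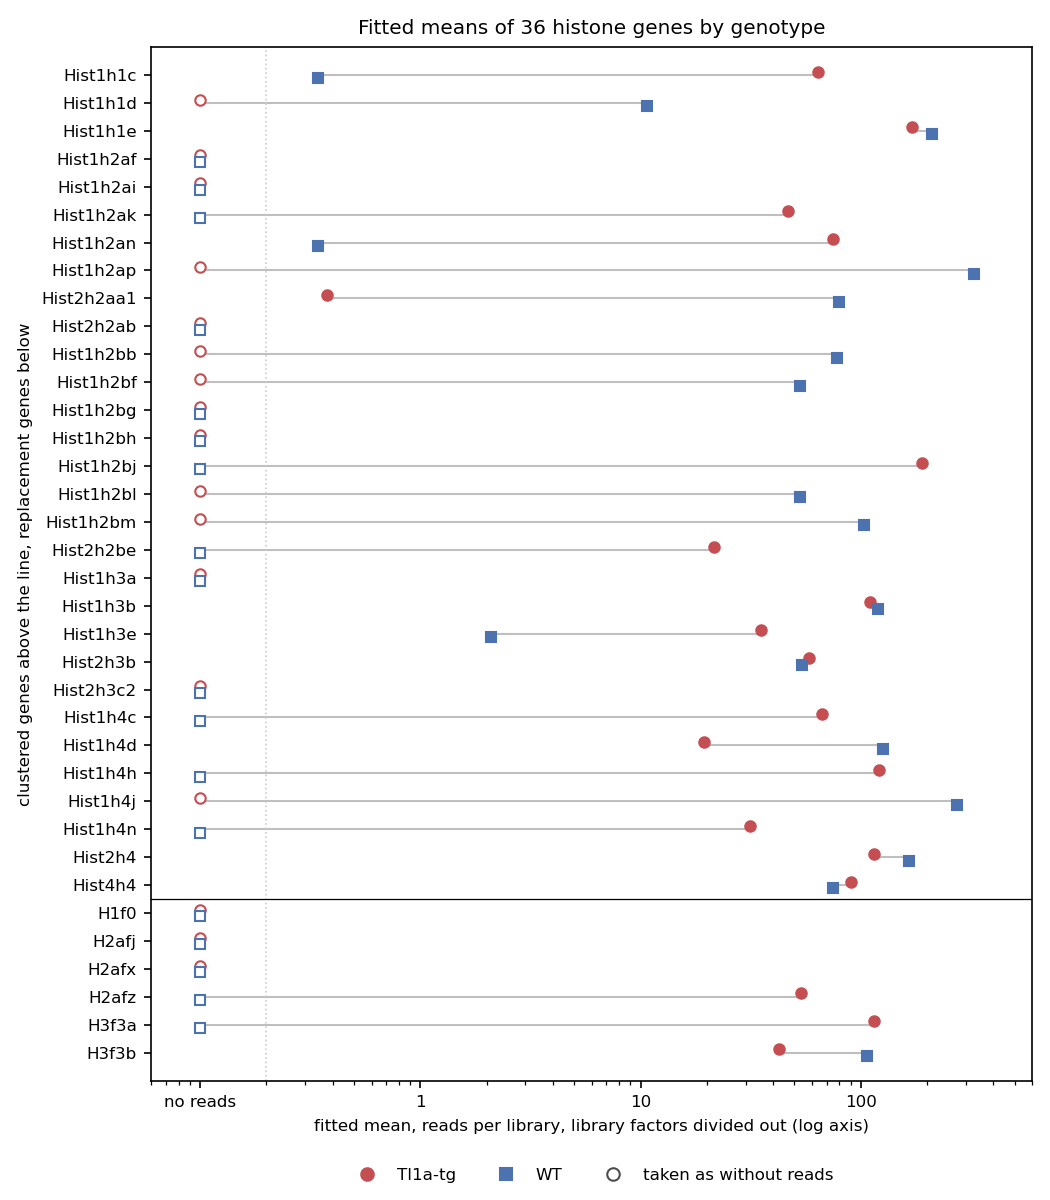
Fitted means of the 36 histone genes in Tl1a-tg (circles) and WT (squares), in reads per library on a log axis, with open symbols for a genotype taken as without reads. Hist1h1e, Hist1h3b, Hist2h3b, Hist2h4 and Hist4h4 have their symbols close together, while Hist1h2bj stands at 191 in Tl1a-tg alone and Hist1h2ap at 327 in WT alone.

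H2B carries a ubiquitin mark that accompanies transcription. None of its 8 clustered genes was read in both genotypes: 2 were read in Tl1a-tg alone, 4 in WT alone and 2 in neither. Beside this and the class counts below, 34.4% of all genes were read in both genotypes. A further 31.4% were read in Tl1a-tg alone, 16.3% in WT alone and 17.9% in neither. Hist1h2bj had deposited values of 193, 210 and 149 in the Tl1a-tg libraries, against 4.49e-05, 1.99e-05 and 4.90e-05 in the WT libraries. The WT values are near 0 and were taken as no reads. The authors' deposited table gives Hist1h2bj a log2 fold change of 22.44 (SE 4.16) and a DESeq2 adjusted p of 6.15e-06. With the WT mean raised to the value that most genes without reads share, the log2 fold change was 10.09. Its adjusted p was 0.355 by DESeq2's Wald formula at the same dispersion, adjusted over every gene with a p-value. Over that same set the deposited DESeq2 p adjusts to 9.55e-06, so the call rests on how a genotype without reads was fitted. The shrunken log2 fold change of Hist1h2bj in the authors' deposited table is 0.21.

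Adjusted p-values were deposited for 9 of the 36 histone genes, and 1 of the 9 was below 0.05, beside 3.67% of the 1662 adjusted genes (61 genes: 41 higher in Tl1a-tg, 2.47%, and 20 lower, 1.2%). All 61 called genes have a genotype fitted near 0, as Hist1h2bj has in WT. By deposited DESeq2 p-value, smallest first, Hist1h2bj was number 10 among the 41 genes called higher.

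Hist1h2bm ran the other way. Its deposited values were 1.19e-05, 1.29e-05 and 9.17e-06 in Tl1a-tg libraries, against 138, 60.9 and 150 in WT libraries, the near-0 values being those of Tl1a-tg this time. The authors' deposited table gives Hist1h2bm a log2 fold change of -23.07 (SE 4.41) and a DESeq2 Wald statistic of -5.23, but no p-value, so no call can be made. Of the 135 genes with a Wald statistic at least that far from 0 in the authors' deposited table, 110 likewise have no p-value. Hist1h2bb was unread in Tl1a-tg and stood at 77.7 in WT. Hist1h2bf and Hist1h2bl had identical values, unread in Tl1a-tg and at 52.9 in WT. Their coding sequences are 98.4% identical, and the part that the division of reads between such copies plays was not tested. Hist2h2be had 21.5 in Tl1a-tg and no reads in WT, with an unadjusted DESeq2 p of 0.116 in the authors' deposited table. Hist1h2bg and Hist1h2bh were without reads in both genotypes.

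Hist1h2bj and Hist1h2bm are 97.4% identical in coding sequence, and the closest annotated copy of Hist1h2bj is Hist1h2bc at 99.0%. Of the 30 clustered genes, 19 have an annotated copy of equal length that is at least 97% identical in coding sequence, and for 3 of them (Hist1h2ap, Hist1h4n, Hist2h2aa1) the identity is 100%. Values of such genes are uncertain, since counting can split reads between copies, which was not tested. The regions upstream of the 2 genes are shown because they differ where the coding sequences hardly do. The 250 bases before each RefSeq start (GRCm38.p6) lie at chr13:22042948-22043197 for Hist1h2bj and at chr13:21721794-21722043 for Hist1h2bm, both on the plus strand. Capitals mark CCAAT on either strand (read as ATTGG on the other) and the octamer ATTTGCAT, a motif known from H2B promoters.
Hist1h2bj promoter: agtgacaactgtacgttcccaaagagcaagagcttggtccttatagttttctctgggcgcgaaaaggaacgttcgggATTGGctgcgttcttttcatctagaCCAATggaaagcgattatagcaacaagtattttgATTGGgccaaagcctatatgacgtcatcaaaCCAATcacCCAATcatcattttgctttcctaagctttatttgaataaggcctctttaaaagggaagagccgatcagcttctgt
Hist1h2bm promoter: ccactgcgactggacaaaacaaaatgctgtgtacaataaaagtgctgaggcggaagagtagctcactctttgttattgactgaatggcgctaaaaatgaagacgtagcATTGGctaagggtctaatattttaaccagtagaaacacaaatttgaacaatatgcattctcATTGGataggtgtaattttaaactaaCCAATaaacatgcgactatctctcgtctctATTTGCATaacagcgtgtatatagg
Hist1h2bj had 5 CCAAT matches and no ATTTGCAT match, while Hist1h2bm had 3 CCAAT matches and an ATTTGCAT match. Among listed genes with a promoter entry, CCAAT occurred in 21 of 26 clustered genes (80.8%) and 4 of 5 replacement genes, beside 34.5% of 27025 RefSeq promoters, and in 2 of 6 H4 promoters. TATAAA, on either strand, occurred in 10 of 26 clustered promoters (38.5%) and in 13.0% of all. ATTTGCAT occurred in 3 of 7 H2B promoters, in no other clustered promoter, in H3f3b among the replacement genes, and in 1.61% of all.

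H2A pairs with H2B in the nucleosome. Of its 7 clustered genes, 2 were read in both genotypes, 1 in Tl1a-tg alone, 1 in WT alone and 3 in neither. Hist1h2ap was unread in Tl1a-tg and stood at 327 in WT, with a DESeq2 p of 0.0149 and an adjusted value of 0.230 in the authors' deposited table. Hist2h2aa1 had 0.375 in Tl1a-tg and 80.0 in WT, with a DESeq2 adjusted p of 0.247 by the authors' deposited table. The Tl1a-tg value is itself a repeated one, shared by 262 genes. Hist1h2an lay the other way, with 74.5 in Tl1a-tg and 0.342 in WT, and Hist1h2ak had 46.5 in Tl1a-tg and no reads in WT. The WT value of Hist1h2an is likewise a repeated one, shared by 333 genes. The unadjusted DESeq2 p of Hist1h2ak was 0.0679 in the authors' deposited table, and Hist1h2an has none. Of the 2 genes lower and the 2 higher in Tl1a-tg, none passed the test, but neither of the higher ones has an adjusted p.

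H4 forms the centre of the core with H3. All 7 of its listed genes had reads: 3 in both genotypes, 3 in Tl1a-tg alone and 1 in WT alone. Hist2h4 reached 115 in Tl1a-tg, against 165 in WT. Its log2 fold change in the authors' deposited table was -0.53 (SE 3.03, the smallest among the 36 histone genes; 95% interval -6.45 to 5.40) with a DESeq2 adjusted p of 0.999. Hist4h4, encoded on chromosome 6 away from the main clusters on chromosomes 13 and 3, had 90.5 in Tl1a-tg, against 75.2 in WT (log2 fold change 0.27, SE 3.64, DESeq2 adjusted p 0.999 in the authors' deposited table). Even for these near-equal levels the intervals allow large differences either way. Hist1h4h had 121 in Tl1a-tg and no reads in WT, and Hist1h4j was unread in Tl1a-tg and stood at 273 in WT. Their DESeq2 p-values in the authors' deposited table were 0.0325 for Hist1h4h and 0.0176 for Hist1h4j, both 0.230 after adjustment. The remaining H4 genes were Hist1h4c (66.7 in Tl1a-tg, no reads in WT), Hist1h4n (31.5 in Tl1a-tg, no reads in WT) and Hist1h4d (19.4 in Tl1a-tg, 126 in WT), with no deposited p-value.

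H3 carries many of the regulatory methyl and acetyl marks of chromatin. None of its 5 clustered genes was read in 1 genotype only, beside 47.8% of all genes: 3 were read in both and 2 in neither. Hist1h3b reached 110 in Tl1a-tg, against 119 in WT, and Hist2h3b had 58.4 in Tl1a-tg and 54.0 in WT. The authors' deposited table lists log2 fold changes of -0.12 (SE 3.96) for Hist1h3b and 0.11 (SE 4.25) for Hist2h3b, with no p-value for either. Hist1h3e had 35.1 in Tl1a-tg and 2.09 in WT, also with no p-value. Hist2h3c2, which is 99.8% identical in coding sequence to Hist2h3b, was without reads in both genotypes, as was Hist1h3a.

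H1 compacts the fibre between nucleosomes. Hist1h1e, the linker histone H1.4, gave most of the reads of this class, 72.7% in Tl1a-tg and 95.0% in WT. Its deposited values were 172, 188 and 133 in Tl1a-tg libraries, against 281, 124 and 306 in WT libraries, rescaled from a fitted mean of 171 (Tl1a-tg) and of 210 (WT). The authors' deposited table gives Hist1h1e a log2 fold change of -0.30 (SE 3.54, 95% interval -7.23 to 6.63) and a DESeq2 adjusted p of 0.999. Hist1h1c had 64.1 in Tl1a-tg and 0.342 in WT, a value shared there by 333 genes, while Hist1h1d was unread in Tl1a-tg and stood at 10.8 in WT; neither has a deposited p-value.

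No replacement gene was called, and 1 of the 6 has an adjusted p. Of the 6, 2 were read in Tl1a-tg alone, 1 in both, 3 in neither and 0 in WT alone. The shares over all genes were 31.4%, 34.4%, 17.9% and 16.3%, in that order. H3f3a and H3f3b encode the same H3.3 protein from different chromosomes. H3f3a had deposited values of 117, 127 and 90.1 in Tl1a-tg libraries, against 0.234, 0.104 and 0.256 in WT libraries. H3f3b had 42.8, 46.7 and 33.1 in Tl1a-tg libraries, against 142, 62.9 and 155 in WT libraries. The fitted mean of H3f3a was higher in Tl1a-tg and that of H3f3b higher in WT, with no call for either. The authors' deposited table gives H3f3a a DESeq2 p of 0.0128 and an adjusted p of 0.230, and H3f3b a log2 fold change of -1.33 (SE 4.08) with no p-value. H2afz had 53.5 in Tl1a-tg and no reads in WT, with no p-value. H1f0, H2afj and H2afx were without reads in both genotypes, and H2afj, a minor H2A form, has a DESeq2 p of 0.976 in the authors' deposited table.

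**Figure D2:**
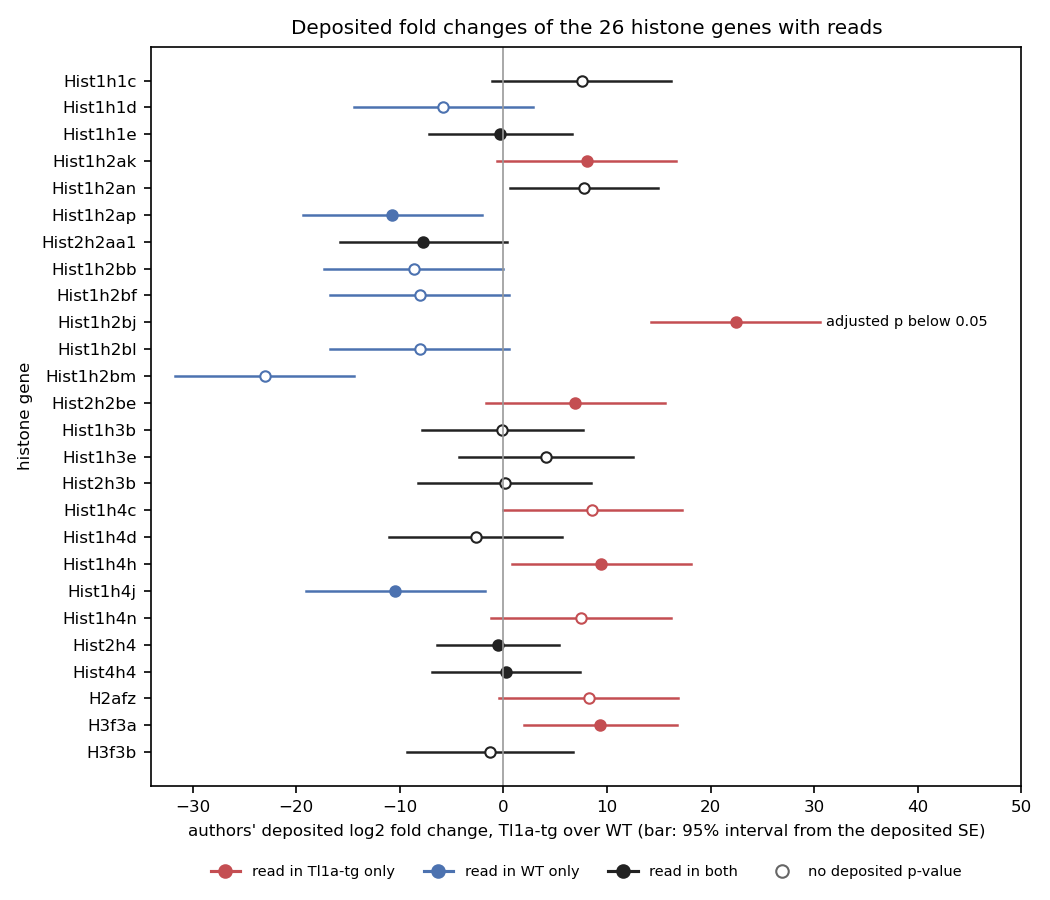
Log2 fold changes, Tl1a-tg over WT, of the 26 histone genes with reads, from the authors' deposited table, with 95% intervals from the deposited standard errors and open circles for genes whose p-value is blank. Hist1h2bj at 22.44 is the gene with an adjusted p below 0.05, Hist1h2bm at -23.07 has no p-value, and the intervals of the genes read in both genotypes span 0 in all cases but Hist1h2an.

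Over the 13 histone genes with a DESeq2 p-value in the authors' deposited table, 5 had an unadjusted p below 0.05 (38.5%; 3 higher and 2 lower in Tl1a-tg), beside 14.6% of the 2580 genes with a p-value (10.7% higher and 3.91% lower). All 5 were among the 7 histone genes with a p-value that were read in 1 genotype only, where the share over all genes was 32.1%. None of the 4 histone genes with a p-value that were read in both genotypes was below 0.05, and neither was any of the 828 measured genes with a p-value. The folds of genes without reads in 1 genotype depend on how that genotype was fitted and are not sizes.

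Of the clustered genes, 6 were measured in both genotypes (Hist1h1e, Hist1h3b, Hist2h3b, Hist1h4d, Hist2h4 and Hist4h4). In the authors' deposited table, their log2 fold changes ran from -2.70 to 0.27 with a median of -0.21, 2 above and 4 below 0, beside a median of -0.38 over all 1379 measured genes. Relative to that median of all genes, the clustered median was 0.17. The median standard error over all measured genes was 3.93, so the measured histone genes sat well inside their error. Dispersions (the model's measure of spread between libraries) computed from the standard errors reached a ceiling of 13 for 27 of the 36 histone genes and 75.9% of all genes.

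Summed over the class, clustered genes gave 1216 reads per library in Tl1a-tg, against 1730 in WT, or 0.252% (Tl1a-tg) and 0.325% (WT) of each genotype's fitted sum over all genes. Genes read in both genotypes supplied 60.7% of the clustered reads in Tl1a-tg and 48.1% in WT. The measured genes among them supplied 46.4% in Tl1a-tg and 43.4% in WT. H1 gave 235 reads in Tl1a-tg, against 221 in WT, H3 gave 203 in Tl1a-tg, against 175 in WT, and H4 gave 444 in Tl1a-tg, against 639 in WT. H2A gave 121 in Tl1a-tg and 407 in WT, of which Hist1h2ap made up 80.3% in WT. H2B gave 212 in Tl1a-tg and 287 in WT, of which Hist1h2bj made up 89.9% in Tl1a-tg. Without Hist1h2ap the log2 ratio of H2A shares, Tl1a-tg over WT, turned to 0.74 from -1.60, and without Hist1h4j that of H4 turned to 0.42 from -0.38. Replacement genes gave 211 reads in Tl1a-tg, against 106 in WT, a log2 share ratio of 1.13 that was -0.01 without H3f3a. These sums are reads, not levels per length, carry no replicate error and were not tested.

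**Figure D3:**
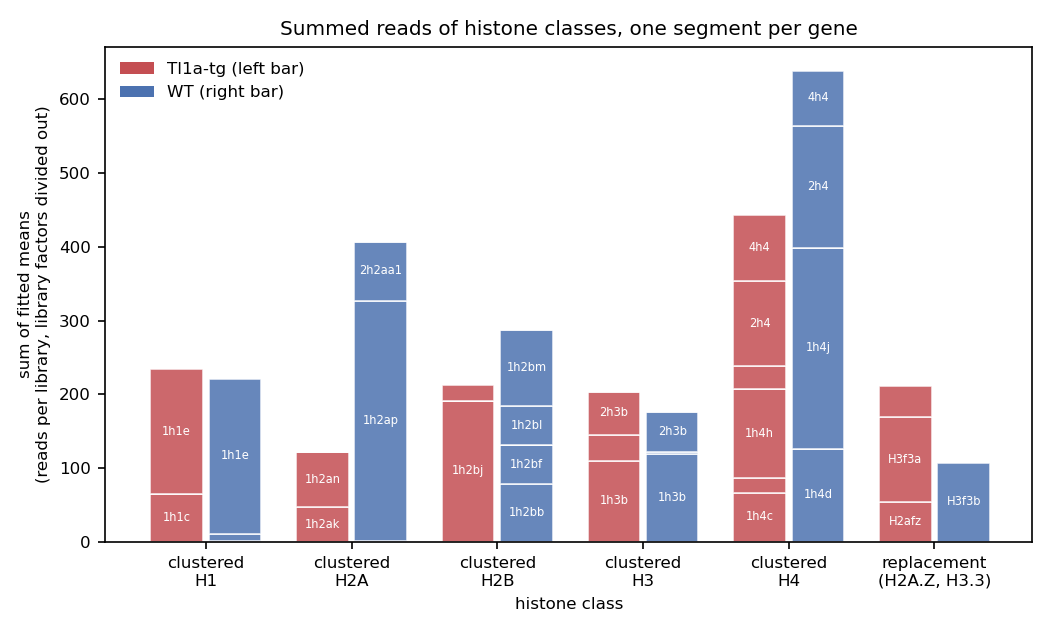
Summed fitted means by histone class, in reads per library, with 1 segment per gene and the Tl1a-tg bar to the left of the WT bar. Different genes fill the H2A and H2B bars of the genotypes: Hist1h2an and Hist1h2ak against Hist1h2ap and Hist2h2aa1 in H2A, and Hist1h2bj against Hist1h2bm, Hist1h2bb, Hist1h2bf and Hist1h2bl in H2B.

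The deposited mean of a gene over all libraries of the authors' model gives another view of the same genes. In the authors' deposited table it was 330 for Hist1h3b, 2.88 times the mean of its fitted means, while the median of this ratio over all measured genes was 0.196 and 58 of the 1379 had a higher one. For Hist1h1e the deposited model mean was 25.5, for Hist1h2ap 22.5 and for Hist1h4j 28.5. Hist1h2bg, Hist1h2ai and H1f0, which had no reads in either genotype, had model means of 12.1, 11.3 and 9.05 in the authors' deposited table. The authors' model may therefore have held libraries beyond these 6.

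**Figure D4:**
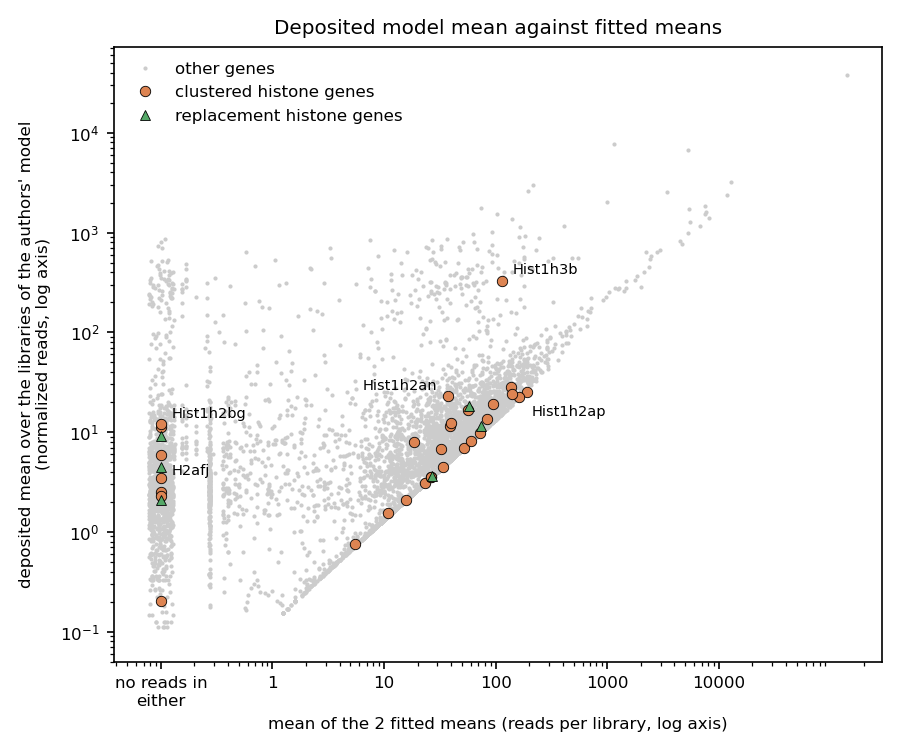
Deposited mean over all libraries of that model against the mean of each gene's fitted means (Tl1a-tg, WT), in reads on log axes, for clustered genes (circles), replacement genes (triangles) and other genes (grey, spread sideways at the left for display). Hist1h3b lies at 330, far above the band of the other histone genes with reads, and the genes without reads in either genotype, at the left, include Hist1h2bg at 12.1 and H2afj at 4.47.

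The lists of genes that process, carry, exchange or modify histones, or act in S phase, held 80 listed genes. The authors' deposited table gives a DESeq2 adjusted p for 23 of them, none below 0.05. A further 5 were read in 1 genotype with the other near 0, as Hist1h2bj was, but have no p-value: the chaperone genes Rbbp4 (98.2 in Tl1a-tg) and Npm1 (0.838 in Tl1a-tg), Hmgb3 (49.2 in Tl1a-tg), Mbtd1 (118 in WT) and the deacetylase gene Sirt6 (138 in WT). Beside the list counts below, 31.4% of all genes were read in Tl1a-tg alone and 16.3% in WT alone. Of the histone transcript processing list, 11 of 15 genes were listed, with 4 read in both genotypes, 6 in Tl1a-tg alone and 1 in WT alone. Arid5b, a DNA-binding cofactor of the demethylase PHF2, is counted in this list though it is no processing factor, and had 27.8 in Tl1a-tg and no reads in WT (DESeq2 adjusted p 0.230 in the authors' deposited table). The cleavage factor gene Cstf2 had 0.665 in Tl1a-tg, against 62.9 in WT, and Sympk, the scaffold of the cleavage complex, had 50.2 in Tl1a-tg and 178 in WT. Of histone chaperones, which carry histones to DNA, 19 of 27 were listed, 7 in both, 10 in Tl1a-tg alone, 1 in WT alone and 1 in neither. Set, an H1 and core histone chaperone, had 100 in Tl1a-tg and no reads in WT. Of the H3.3 chaperone subunits, Ubn2 had 135 in Tl1a-tg, against 2.11 in WT, and Ubn1 had 46.9 in Tl1a-tg and 0.267 in WT. Of the complexes that exchange H2A.Z, 9 of 18 were listed, 1 in both, 4 in Tl1a-tg alone, 3 in WT alone and 1 in neither. Brd8 was unread in Tl1a-tg and stood at 196 in WT, while Trrap had 54.6 and Znhit1 71.1 in Tl1a-tg, both with no reads in WT.

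The S phase genes, with which clustered histone transcription is timed, had 23 of 50 listed: 6 in both genotypes, 9 in Tl1a-tg alone, 4 in WT alone and 4 in neither. Their 4 measured members had a median log2 fold change of -1.33 in the authors' deposited table, beside -0.38 over all measured genes. Of these 4, 3 lay below 0 and 1 above, Mki67, with 145 in Tl1a-tg and 88.1 in WT. The fitted means of the whole list went the other way, with a sum of 772 in Tl1a-tg, against 523 in WT. Dnmt1, the maintenance DNA methyltransferase, had 119 in Tl1a-tg and no reads in WT. Hells, a chromatin remodeler, was unread in Tl1a-tg and stood at 8.03 in WT, and E2f1, a transcription factor of the G1 to S step, had 56.5 in Tl1a-tg and 160 in WT. Of the high mobility group genes 6 of 9 were listed, 3 in both, and none passed the test. Hmga1 was unread in Tl1a-tg and stood at 2.27 in WT. Hmgb1, a DNA-bending protein, had 17.5 in Tl1a-tg, against 54.5 in WT; its relative Hmgb2 had 46.9 in Tl1a-tg and 104 in WT. Of the deacetylases and acetyltransferases 14 of 25 were listed, 6 in both, and in the authors' deposited table the median over their 5 measured members was 0.85 on the log2 scale. The acetyltransferase Kat2a had 23.0 in Tl1a-tg and no reads in WT, the deacetylase Hdac9 was unread in Tl1a-tg and stood at 16.3 in WT, and Ep300, which encodes the acetyltransferase p300, had 219 in Tl1a-tg and 44.7 in WT.

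Marker sums of Paneth, goblet and stem cells lay close between genotypes, though single markers did not. All 8 Paneth markers were read in both, and their fitted means summed to 42990 in Tl1a-tg, against 44039 in WT, goblet markers (4 of 7 listed) gave 20581 in Tl1a-tg and 20430 in WT, and stem markers (5 of 6 listed) gave 1432 in Tl1a-tg and 1463 in WT. The stem cell receptor gene Lgr5 had 131 in Tl1a-tg, against 0.342 in WT, while the goblet gene Agr2 had 186 in Tl1a-tg and no reads in WT, both at an adjusted DESeq2 value of 0.230 in the authors' deposited table. Slc12a2, of the stem list, had 296 in Tl1a-tg, against 494 in WT. Other sums differed, but each rests on few genes and no marker had a DESeq2 adjusted p below 0.05. Enterocyte markers (5 of 9 listed) gave 220 in Tl1a-tg and 58.5 in WT. Of these, Vil1 had 138 in Tl1a-tg, against 12.6 in WT, while Apoa4 had 0.335 in Tl1a-tg and 0.521 in WT. Fibroblast and muscle markers (4 of 8 listed) gave 200 in Tl1a-tg and 54.6 in WT. Enteroendocrine markers (3 of 6 listed) gave 28.7 in Tl1a-tg, against 114 in WT, myeloid markers (4 of 6 listed) 11.3 in Tl1a-tg, against 2.97 in WT, and the B and plasma marker listed (1 of 6) 3.04 in Tl1a-tg, against 0.939 in WT. Tuft markers (4 of 5 listed) gave 24.1 in Tl1a-tg and 262 in WT, and T and innate lymphoid markers (2 of 8 listed) 8.63 in Tl1a-tg and 166 in WT, of which Cd8b1 was unread in Tl1a-tg and stood at 128 in WT. The collagen gene Col1a1 had 60.5 in Tl1a-tg and no reads in WT. Endothelial markers were not listed. The part of these cells in the histone levels was not tested.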

How the data were processed

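Ileal crypt RNA from 3 Tl1a-tg and 3 WT libraries was sequenced. The submitters' processing notes name RSEM 1.2.15, Bowtie2 2.1.0, DESeq2, Trimmomatic and FastQC. For genome build, annotation and counting options, nothing is given in the sources used here. The deposited expression table holds a signal that, per the file headers, is normalized counts; dividing the columns showed 1 fitted mean per gene and genotype times a library factor. The authors deposited log2 fold changes (unshrunken and shrunken by apeglm), a Wald score, p-values and adjusted p-values, which were used as given because the columns have no replicate spread. The adjusted p threshold was 0.05. Whether p-values measure spread between mice or technical spread is not stated.

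Histone genes, lists and alternatives were chosen with earlier results of these data known. Genes named are members with a p-value, replacement genes with a fitted mean of at least 10 in either genotype, the 3 clustered members per class with the highest mean, and the 3 smallest p-values (or highest means) per helper list; other names were chosen after their values were seen. Stem-loops came from GENCODE transcripts and promoters from RefSeq (GRCm38.p6, 31 of 36 genes matched). The numerical steps (Python 3.11.15, pandas 2.3.3, NumPy 2.4.6) were tested on simulated data.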

Additional observations from a re-analysis of the deposited data

Results flagged for a closer look

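The histone genes below had no reads in either Tl1a-tg or WT, yet the authors' deposited table gives them a mean above 3 normalized reads over the libraries of its model. The deposited model mean was 9.05 for H1f0, 4.47 for H2afj, 11.3 for Hist1h2ai, 12.1 for Hist1h2bg, 5.85 for Hist1h2bh and 3.50 for Hist1h3a. Over all genes, 501 of the 1274 without reads in either genotype had such a mean above 3, so the histone genes share this with many others.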

How the results depend on the processing

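Of 56 recomputed values, 43 kept their direction and stayed within the limits set for them, 12 moved and 1 call was lost. With near-0 means placed at the shared floor value, 0 clustered genes were called in place of 1, and 0 genes over the whole table; 352 genes then had an unadjusted p below 0.05 by DESeq2's Wald formula. The count stayed at 1 under the remaining alternatives. Of these, the 0.1 threshold could only have added calls, and the shrunken folds (same p-values) could lower the count only through a changed sign. Counting identical copies once (added after seeing the data) could not change the count. These settings therefore say little of the stability of the call. The clustered median log2 fold change (-0.21) was 0.17 after centring on all measured genes, 0.010 with a pseudocount of 1 and 0.018 with a pseudocount of 0.5 over all members. The replacement median (-1.33, from H3f3b alone) was 8.25 for members with a mean of at least 10, 0.021 with a pseudocount of 1 and 0.036 with a pseudocount of 0.5. Clustered genes read in both genotypes numbered 6 in place of 10 when a fitted mean of 10 was asked. Without the gene of highest fitted mean, log2 share ratios were 2.67 for H1 (0.23 with it), 0.74 for H2A (-1.60), -3.59 for H2B (-0.29), 0.42 for H4 (-0.38) and -0.0090 for the replacement genes (1.13). At a limit of 50 no replacement gene was left. No paired analysis was possible because the columns hold no replicate spread, and for the same reason no library could be left out in turn. The cause of these shifts was not tested. Dispersions were at their ceiling for 27 of 36 members, and for 4 of the 11 read in both genotypes. The part of depth in this was not tested.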
